A study of Rattus norvegicus with 2 samples.

Results

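The genes described here encode matricellular proteins and matrix proteoglycans of the rat heart. They were chosen by name. Bgn, Dcn, Lum and Fmod encode small leucine-rich proteoglycans, and Postn, Spp1, Sparc and Thbs4 encode matricellular proteins. Fn1 and Eln encode the structural matrix proteins fibronectin and elastin. Every probe set whose platform annotation gave one of these 10 symbols was taken, which made 22 of the 8799 probe sets and 10 of the 4736 gene symbols on the array. RNA came from the hearts of male rats of the Dahl salt-sensitive strain, which develops hypertension on a salt-rich diet, and all were 17 weeks old. The high-salt group was fed a high-salt diet and is labelled as having chronic heart failure, and the low-salt group was fed a low-salt diet. Each diet was read on 1 array, and the labels state neither the chamber of the heart nor whether the RNA of an array came from 1 animal or a pool.

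The extracellular matrix of the heart is a network of collagen and elastic fibres made mainly by fibroblasts. Small leucine-rich proteoglycans bind collagen fibrils and govern how they assemble, and biglycan can also be released from the matrix as a danger signal. Matricellular proteins are secreted into the matrix without being part of its fibres; they bind integrins, growth factors and collagen, are scarce in the healthy adult heart and are known to be induced by injury or pressure overload. Fibronectin is the early scaffold on which collagen is laid down, and elastin gives tissue its recoil.

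Since neither diet had a second array, no replicate spread could be measured and no test was possible. Each difference compares these 2 arrays. A pair of error measures within these arrays was used in place of replicates. The first was a noise floor of 126.4 intensity units, the 95th percentile of the absolute values of readings below 0, which 20.0% of the non-control probe sets reached on the high-salt array and 20.3% on the low-salt array. Both readings were raised to the floor before a ratio was taken, so a ratio with 1 reading under it is a bound, and no ratio was taken when both lay under it. The second was the disagreement between probe sets of the same gene. Its pooled SD was 0.22 on the log2 scale over 231 genes, and it holds no variation between animals. Of 1955 probe sets that reached the floor on an array, 69 were higher by 2-fold or more in the high-salt heart, or 3.53%, and 33 were lower by as much, or 1.69%.

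Against that background, 1 of the 13 member probe sets that reached the floor was higher by 2-fold or more in the high-salt heart, none was lower by as much and 12 were neither. The higher one belonged to Bgn. Of the 22 probe sets, 9 reached the floor on both arrays, 3 on the high-salt array alone (Postn, Spp1 and Fn1), 1 on the low-salt array alone (Lum) and 9 on neither. The median log2 ratio of the 13 was -0.08, against -0.04 for all 1955 probe sets. Among these 13, 6 were above 0 on the log2 scale and 7 below. At a lower floor of 10.9, the 40th percentile of all readings, which lies within the noise, 6 of 19 member probe sets were higher and 2 lower, where 7.25% of all probe sets were higher and 7.62% lower. The tissue was bulk heart, in which fewer cells of a type and less RNA per cell cannot be told apart.

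**Figure D1:**
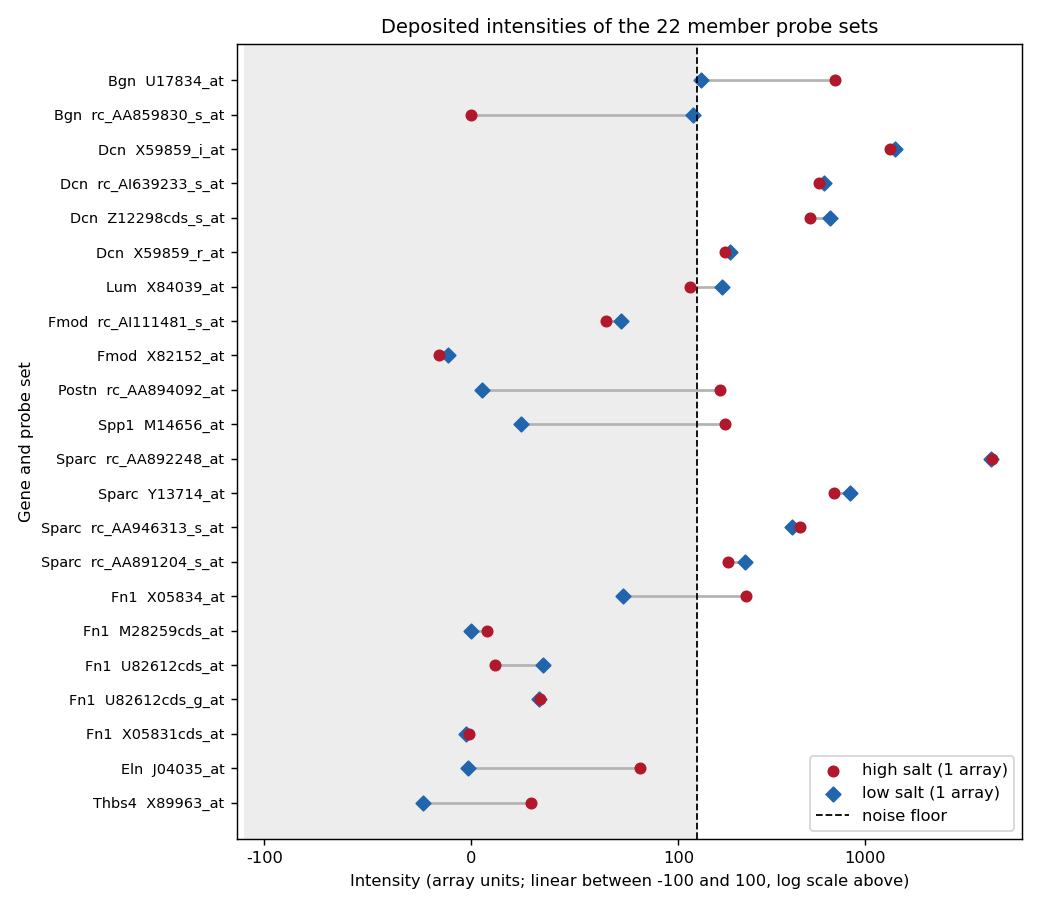
Intensity of each member probe set (horizontal axis in array units, linear near 0 and logarithmic further out) on the high-salt array (red circles) and the low-salt array (blue diamonds), 1 array each. The dashed line is the noise floor of 126.4 and the shaded band holds readings under it; the 4 Dcn and 4 Sparc probe sets lie to its right on both arrays with their points close together, and the upper Bgn probe set has the widest gap of those to its right.

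Biglycan gave the one large difference of the family among bright readings. Bgn, which encodes a proteoglycan carrying chondroitin or dermatan sulphate chains, read 695.2 under high salt and 131.6 under low salt on probe set U17834_at. The ratio was 5.28-fold (log2 2.40), rank 10 from the top of the 1955 probe sets. The low-salt reading was barely above the noise floor. When the floor was raised to the 99th percentile of the sizes below 0, at 271.2, the high-salt reading still exceeded it and the ratio became at least 2.56-fold higher. On the array's other Bgn probe set, rc_AA859830_s_at, the order of the hearts was the opposite, with 0.0 under high salt and 120.2 under low salt. Both of those readings lay under the noise floor. At a floor of 84.9, the 90th percentile of the sizes below 0, the low-salt reading of rc_AA859830_s_at counted. There rc_AA859830_s_at was at least 1.42-fold lower under high salt, opposite to U17834_at. The suffix _s_at marks probes that can match more than 1 transcript, and some Dcn and Sparc probe sets carry it too. Whether the probes of rc_AA859830_s_at match Bgn was not checked, since no probe sequences were available. The higher level of Bgn therefore rests on 1 of its 2 probe sets.

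Decorin, the closest relative of biglycan, read slightly lower in the high-salt heart on all of its 4 probe sets, by less than the 2-fold threshold. Dcn encodes a proteoglycan that coats collagen fibrils and binds TGF-beta. Its brightest probe set, X59859_i_at, read 1364.9 under high salt and 1443.6 under low salt. Probe set rc_AI639233_s_at read 567.4 under high salt against 602.8 under low salt, and the weakest, X59859_r_at, 178.2 under high salt against 188.2 under low salt. These 3 gave log2 ratios between -0.09 and -0.08, close to the median of all probe sets and well inside the SD of 0.22 between probe sets of a gene. The remaining one, Z12298cds_s_at, read 509.5 under high salt and 648.8 under low salt, a log2 ratio of -0.35. The ratios of the 4 Dcn probe sets thus lay within 0.27 log2 units of one another, and the pair X59859_i_at and X59859_r_at was designed on the same sequence record.

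Lumican and fibromodulin belong to a second class of these proteoglycans, with keratan sulphate chains. Lum, which regulates the thickness of collagen fibrils and lies next to Dcn in the rat genome in the RefSeq gene table (assembly GRCr8), read 115.9 under high salt and 172.1 under low salt. Held at the noise floor it was lower by at least 1.36-fold, since its high-salt reading lay under that floor. Against a floor of 84.9, the 90th percentile of the sizes below 0, both Lum readings counted. The ratio there was 1.48-fold lower, short of 2-fold. Fmod, which also binds fibrillar collagen, stayed under the floor. It read 65.1 under high salt against 72.2 under low salt on rc_AI111481_s_at and -15.7 under high salt against -11.3 under low salt on X82152_at, so its readings nearly coincided on the 2 arrays. Among the 4 proteoglycans of the family, the differences were therefore unequal: Bgn was higher on its brighter probe set, Dcn read lower by less than 2-fold on each probe set, Lum was lower by at least 1.36-fold, and Fmod was not measurable above the noise floor.

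**Figure D2:**
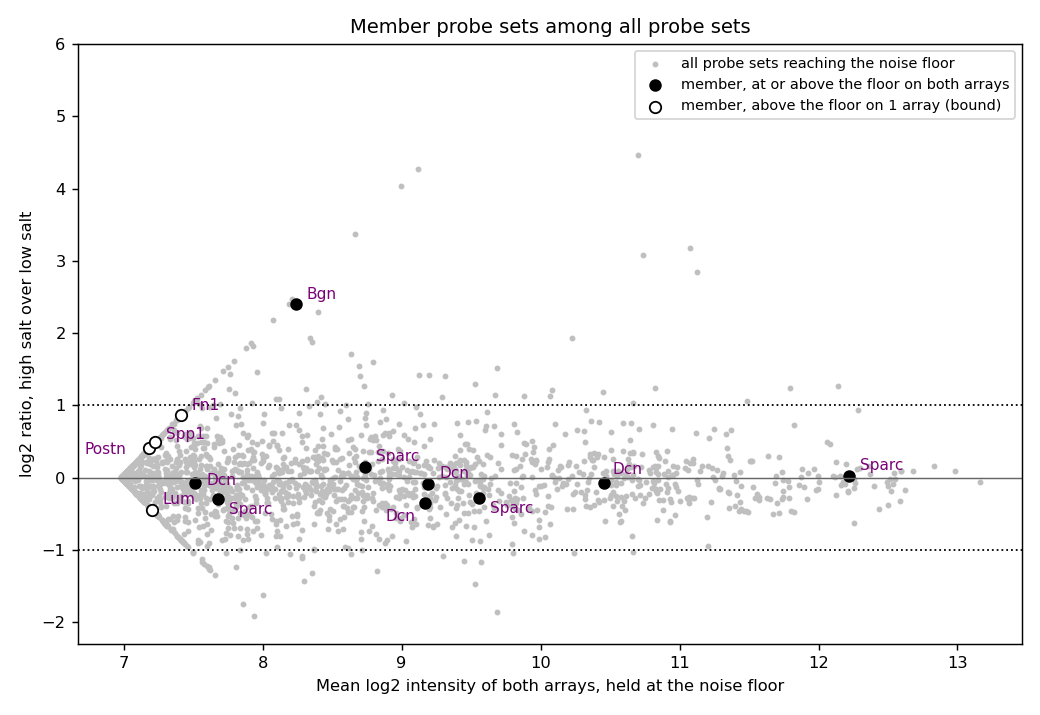
Log2 of the high-salt over the low-salt reading (vertical axis) against mean log2 intensity of both arrays (horizontal axis), with readings held at the noise floor. Grey points are the 1955 probe sets that reached the floor, filled black points are members above it on both arrays, open points are members above it on 1 array and dotted lines mark 2-fold; Bgn stands at 2.40 and the 8 Dcn and Sparc points lie between -0.35 and 0.15.

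Sparc was read brightly in both hearts and differed between them by less than 2-fold on each of its 4 probe sets. It encodes SPARC, a collagen-binding matricellular protein needed for collagen deposition in the pressure-loaded heart of mice. Probe set rc_AA892248_at read 4805.4 under high salt and 4721.8 under low salt, above 99.6% of all probe sets on each array, with a log2 ratio of 0.03. Probe set Y13714_at read 681.4 under high salt against 831.4 under low salt, a log2 ratio of -0.29. The probe set rc_AA946313_s_at read 450.1 under high salt against 404.9 under low salt, and rc_AA891204_s_at 184.5 under high salt against 227.0 under low salt. The sign was positive for 2 probe sets and negative for the other 2, with a range of 0.45 log2 units. Over the 12 genes with 4 probe sets that reached the floor, Sparc and Dcn among them, the median range was 0.52. Across the 3 rescalings of the arrays that were tried, the ratio of rc_AA892248_at ran from -0.05 to 0.07, so that its sign depends on the scaling.

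Periostin and osteopontin had readings above the noise floor in the high-salt heart and far below it in the low-salt heart. Postn encodes periostin, a ligand of integrins made by activated fibroblasts, and had 1 probe set, which read 167.3 under high salt and 5.0 under low salt. Spp1 encodes osteopontin, a secreted integrin and CD44 ligand made by macrophages and other cells, and its 1 probe set read 177.6 under high salt and 23.9 under low salt. As bounds against the noise floor, Spp1 was at least 1.40-fold and Postn at least 1.32-fold higher. With the floor at the 90th percentile of the sizes below 0, at 84.9, the bounds were at least 2.09-fold for Spp1 and at least 1.97-fold for Postn. Neither reached the 99th percentile floor, where no ratio exists.

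Postn, Spp1 and Fn1 each had a probe set that reached the floor on the high-salt array alone, and no promoter sequence was available for Fn1. The 250 bases before the RefSeq transcription starts (GRCr8) of Postn and Spp1 are shown. These 2 genes were thus picked by their readings. Capitals mark matches, on either strand, to the TATA box TATAAA, the CCAAT box CCAAT, the GC box GGGCGG, the AP-1 motif TGANTCA and the RUNX motif ACCNCA; no marked matches overlap. The Postn sequence is chr2:140677811-140678060 on the plus strand and the Spp1 sequence chr14:5619805-5620054 on the minus strand, each 5′ to 3′.
Postn: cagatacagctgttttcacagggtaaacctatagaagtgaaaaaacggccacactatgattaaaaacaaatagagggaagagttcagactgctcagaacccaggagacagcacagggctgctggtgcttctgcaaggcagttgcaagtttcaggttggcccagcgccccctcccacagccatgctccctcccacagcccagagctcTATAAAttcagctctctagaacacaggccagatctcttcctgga
Spp1: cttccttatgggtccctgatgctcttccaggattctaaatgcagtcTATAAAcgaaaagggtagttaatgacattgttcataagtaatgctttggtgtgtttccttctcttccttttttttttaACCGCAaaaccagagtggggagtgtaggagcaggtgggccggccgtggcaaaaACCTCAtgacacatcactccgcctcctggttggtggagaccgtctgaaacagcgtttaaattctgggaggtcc
Both held TATAAA, from -44 to -39 in Postn and from -204 to -199 in Spp1, counted from the start site. Of 33469 rat windows of this length, 12.9% held those letters. The Spp1 window also held ACCNCA at -126 and at -73, which 41.0% of all windows held. Of the 10 members, 6 had a sequence in the table (Lum, Fmod, Postn, Spp1, Sparc and Thbs4), and TATAAA was in the windows of Postn and Spp1. A match of letters is a description of the sequence and not evidence of a bound site.

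Fibronectin was read by 5 probe sets, of which 1 reached the noise floor. Fn1 probe set X05834_at read 230.0 under high salt and 73.2 under low salt, at least 1.82-fold higher against the floor and at least 2.71-fold higher against the floor of 84.9. The next 2 probe sets, U82612cds_at and U82612cds_g_at, read 11.3 under high salt against 34.5 under low salt and 33.3 under high salt against 32.9 under low salt. The last 2, M28259cds_at and X05831cds_at, read 7.6 under high salt against 0.0 under low salt and -1.2 under high salt against -2.4 under low salt. These 4 dim probe sets give no direction, and they neither share nor oppose that of X05834_at at a level above the noise. What part of the transcript each probe set reads was not analysed here.

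Elastin and thrombospondin-4 did not reach the noise floor in either heart. Eln, which encodes the core protein of elastic fibres, read 81.4 under high salt and -1.7 under low salt. Thbs4, a matricellular protein known to be induced in the overloaded heart, read 28.6 under high salt and -23.5 under low salt. Both genes read higher in the high-salt heart, but no reading of either was bright enough for a ratio.

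**Figure D3:**
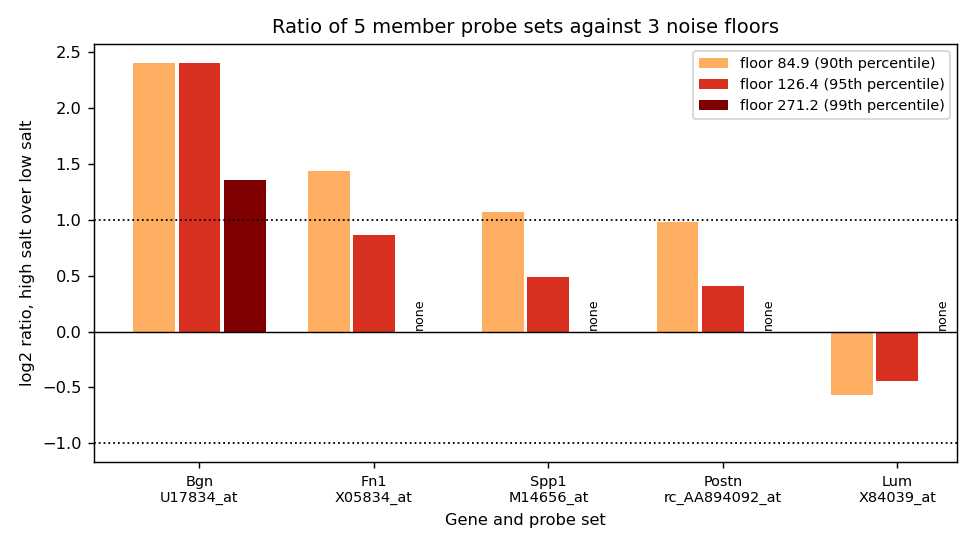
Log2 of the high-salt over the low-salt reading (vertical axis) for 5 member probe sets, with readings held at noise floors of 84.9, 126.4 and 271.2 (bars from light to dark). Dotted lines mark 2-fold and "none" marks a probe set under the floor on both arrays. Bgn U17834_at stays past 2-fold at every floor, whereas Fn1 and Spp1 pass it at the lowest floor alone and Postn and Lum pass it at none. The other Bgn probe set, rc_AA859830_s_at, is not drawn and has a ratio at the lowest floor alone, with a log2 value of -0.50.

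A ratio hides how far apart dim readings were, so intensity differences were also compared, a step chosen after the data were seen. Among the 6968 probe sets whose low-salt reading lay under the noise floor, the middle 95% of the differences (high salt minus low salt) ran from -52.8 to 68.9 intensity units. Postn, Fn1 X05834_at and Spp1 lay outside this range with differences of 162.3, 156.8 and 153.7. The difference for Eln was 83.1, higher than in 98.2% of these probe sets, and that for Thbs4 was 52.1, inside the range. The dim Bgn probe set was outside on the other side, with a difference of -120.2. The other 6 member probe sets of this kind, 4 of Fn1 and 2 of Fmod, had differences between -23.2 and 7.6. A high-salt reading higher by at least the noise floor itself was found in 54 of the 6968 probe sets, or 0.775%, and in 3 of the 12 member probe sets among them. These 3 were those of Postn, Fn1 and Spp1, already known to reach the floor on the high-salt array alone. The rule was chosen after the data were seen, and most of the 6968 probe sets were dim on both arrays. The count of 3 is therefore no separate support for a difference in the family. The reverse, a low-salt reading higher by at least the floor where the high-salt reading was dim, was found in 0.586% of 6996 probe sets and in 0 of 10 member probe sets. The difference for Lum was -56.2, inside the middle 95% of those 6996, which ran from -69.2 to 48.7. Thbs4 and Eln, dim on both arrays, lay above that range, so that the place of Thbs4 depends on which array defines the dim probe sets.

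**Figure D4:**
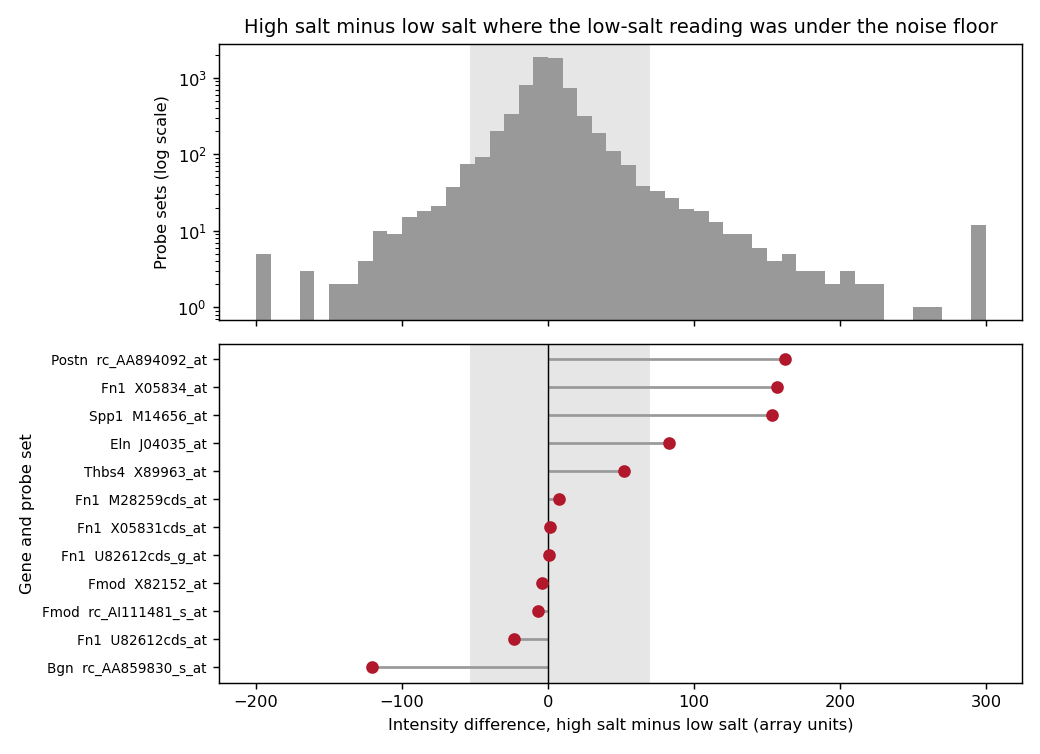
Intensity difference of high salt minus low salt (horizontal axis, array units) for probe sets whose low-salt reading was under the noise floor. The upper panel counts all 6968 (vertical axis on a log scale, with differences past either end of the axis in the end bars), the lower panel shows the 12 member probe sets and the grey band is the middle 95% from -52.8 to 68.9; Postn, Fn1 X05834_at, Spp1 and Eln lie to its right and the dim Bgn probe set to its left.

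Partners of these proteins in the matrix were read in the same way, with 1 probe set per gene. Over all 1216 genes that reached the noise floor, 3.54% were at least 2-fold higher and 1.89% at least 2-fold lower, with a median log2 ratio of -0.04. Of 19 other proteoglycan genes on the array, 4 reached the floor, of which none was at least 2-fold higher and 1 was lower, with a median of 0.26. That one was Sdc4, a transmembrane heparan sulphate proteoglycan of focal adhesions, which read 148.9 under high salt and 305.7 under low salt on probe set S61868_g_at, 2.05-fold lower. Its partner probe set S61868_at read 123.7 under high salt against 112.9 under low salt, under the floor, and with the medians of the arrays set equal Sdc4 no longer passed 2-fold. The glypican gene Gpc1, a membrane-anchored heparan sulphate proteoglycan, read 1036.7 under high salt against 683.1 under low salt, a 1.52-fold difference. Bcan, which encodes brevican, a proteoglycan known mainly from brain, read 215.5 under high salt against 148.0 under low salt. Agrn, which encodes agrin, read 150.9 under high salt against 153.7 under low salt.

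Of 13 other matricellular and adhesive glycoprotein genes, 5 reached the floor and none passed 2-fold in either direction, with a median log2 ratio of 0.33. Mgp, which encodes an inhibitor of calcification, read 2496.6 under high salt and 1560.1 under low salt. The galectin gene Lgals1 read 1525.1 under high salt against 1215.8 under low salt. Sparcl1, the nearest relative of Sparc, read 405.0 under high salt against 408.7 under low salt. The brightest of 3 probe sets of Tnc, which encodes the matricellular protein tenascin-C, read 125.4 under high salt against 169.6 under low salt, and the other 2 were dim.

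Of 14 elastic fibre and cross-linking genes, 6 reached the floor, of which 1 was at least 2-fold higher and none lower, with a median of 0.12. Loxl1, a lysyl oxidase that cross-links elastin, read 301.7 under high salt and 98.1 under low salt, at least 2.39-fold higher. Its second probe set read 154.1 under high salt against 39.6 under low salt, at least 1.22-fold higher, and by the median of both probe sets or against the floor of 271.2 Loxl1 did not pass 2-fold. Lox, which cross-links collagen and elastin, was chosen for mention after its values were seen. It read 134.4 under high salt against 1.6 under low salt on its brightest probe set, at least 1.06-fold higher against the floor. Its other 3 probe sets were under the floor. They read 93.3 under high salt against 81.9 under low salt, 68.9 against 41.2, and -7.5 against 3.3. Of the genes for collagen-hydroxylating enzymes, P4hb read 639.2 under high salt against 636.8 under low salt. Its probe set X02918_g_at read 293.5 under high salt against 212.1 under low salt, 1.38-fold higher, and M21476_s_at was under the floor, at 122.9 against 68.2. Plod3 read 156.6 under high salt against 140.8 under low salt, and P4ha1 147.4 under high salt against 81.3 under low salt. Serpinh1, the collagen chaperone, read 200.3 under high salt against 275.3 under low salt.

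Of 15 genes for matrix receptors, 4 reached the floor and none passed 2-fold, with a median log2 ratio of -0.36. Itgb1, the beta chain shared by the fibronectin and collagen receptors, read 876.1 under high salt and 521.0 under low salt, a 1.68-fold difference. Itga7, a laminin receptor chain of muscle, read 476.9 under high salt against 639.5 under low salt. The scavenger and thrombospondin receptor gene Cd36 read 336.6 under high salt against 413.3 under low salt. Ddr1, a collagen receptor, read 122.1 under high salt against 230.4 under low salt. Its probe sets L26525_at and S77556_s_at were dim, at 66.8 under high salt against 16.2 under low salt and 19.0 against 22.2. Receptors of osteopontin and periostin, chosen for mention after their values were seen, were dim in both hearts: Itgav read 29.4 under high salt against 19.7 under low salt, Itgb3 25.2 under high salt against 12.7 under low salt, and the brightest Cd44 probe set 13.4 under high salt against -0.6 under low salt. Of 10 genes of glycosaminoglycan synthesis, Hs6st1, a heparan sulphate sulphotransferase, alone reached the floor, at 127.3 under high salt against 8.3 under low salt. Against the floor Hs6st1 was at least 1.01-fold higher.

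**Figure D5:**
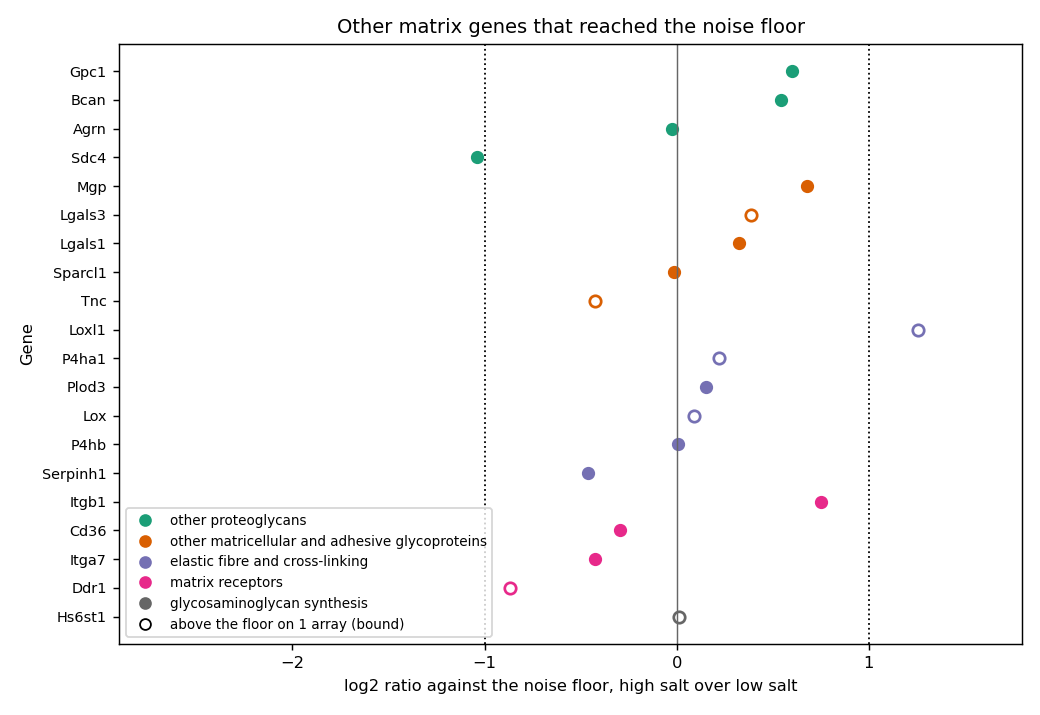
Log2 of the high-salt over the low-salt reading against the noise floor (horizontal axis) for the 20 other matrix genes that reached it, coloured by list. Open circles are bounds and dotted lines mark 2-fold; Loxl1 at 1.25 and Sdc4 at -1.04 are the 2 genes past them.

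Markers of the cells that make or surround the matrix were read beside these values. Cardiomyocyte markers were bright on both arrays, with 8 of 9 genes above the noise floor, none past 2-fold on its brightest probe set and summed brightest readings of 45586 under high salt and 45781 under low salt. Each such sum took the highest reading of every listed gene on each array, which need not come from the same probe set. Readings under the noise floor were included. Actc1 read 8364.9 under high salt against 7848.9 under low salt, and Myl2 read 7677.8 under high salt against 6884.4 under low salt. Probe sets of each myosin heavy chain gene had the same direction but differed in size. Myh7 read higher under high salt, at 6372.0 against 5980.7 under low salt on X15939_f_at and 4125.1 against 1988.0 on X15939_i_at. Myh6 read lower under high salt, at 4416.3 against 4739.8 under low salt on rc_AA891522_f_at. Its other probe sets read 1673.2 against 2398.5 on rc_AI103920_f_at and 1706.2 against 3276.7 on rc_AI104924_f_at. Of 10 fibroblast markers, 6 reached the floor, with 1 higher by 2-fold, none lower and sums of 3548 under high salt and 2407 under low salt. Col1a1 read 1169.7 under high salt against 823.3 under low salt and Vim 975.5 under high salt against 564.8 under low salt. S100a4 read 461.8 under high salt against 99.8 under low salt, whereas Col3a1 read 545.4 under high salt against 599.5 under low salt and Pdgfra 140.0 under high salt against 158.6 under low salt. Of the 6 that reached the floor, 4 had a log2 ratio above 0 and 2 below it, and Ddr2, Thy1, Tcf21 and Pdgfrb were dim in both hearts. The part of these cells in the Bgn, Postn and Fn1 readings was not tested. Of 10 leukocyte markers, 3 reached the floor, with 1 higher and 1 lower by 2-fold and sums of 1356 under high salt and 1571 under low salt. Lyz2 read 458.6 under high salt against 130.4 under low salt. Cd74 read 507.3 under high salt against 1144.4 under low salt, whereas Ptprc, Itgam and Csf1r were dim in both hearts, and the part of leukocytes in the Spp1 reading was not tested. All 3 red cell markers were higher on their brightest probe set, with sums of 7945 under high salt and 3190 under low salt. Hbb read 6982.3 under high salt against 2910.5 under low salt. Alas2 read 698.0 under high salt against 104.5 under low salt, and Slc4a1 read 264.6 under high salt against 119.8 under low salt, although its probe set J04793_at read 168.3 under high salt against 174.8 under low salt. Of 3 platelet markers, Pf4 reached the floor, at 223.6 under high salt against 123.5 under low salt. Itga2b read 68.4 under high salt against 67.8 under low salt, and the sums were 275 under high salt and 197 under low salt. Of 6 smooth muscle markers, Acta2 reached it, at 378.5 under high salt against 314.6 under low salt, with sums of 474 under high salt and 376 under low salt. Of 5 endothelial markers, Flt1 reached it on the low-salt array, at 121.3 under high salt against 127.9 under low salt, with sums of 396 under high salt and 364 under low salt. No endothelial reading reached the floor on the high-salt array, so that sum is made of readings within the noise. What part blood or vessel content had in the member readings was not tested.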

How the data were processed

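Per the labels' protocols, total RNA of rat hearts was made into biotin-labelled, fragmented cRNA and hybridised, 1 sample to each 1-colour array. The authors deposited intensities on a linear scale, 1 for each probe set, with readings below 0 (27.3% on the high-salt and 27.4% on the low-salt array). How these intensities were summarised is not given in the sources used here. Trimmed by 2% at each end, both array means were 100.2, so the values were used as deposited. Groups came from the source names, with 1 array each, and the number of arrays limits the precision.

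Controls aside, the 2016 platform annotation gave 1 gene symbol to 7006 of 8740 probe sets, several to 308 and none to 1426; genes were named from those with 1, and 6985 matched the RefSeq gene table by gene ID. No probe set with several symbols named a member. The noise floor (126.4) was set over both arrays, and the log2 ratio is high salt over low salt after raising both readings to it. For genes outside the members, the probe set of highest floored mean stood for the gene. Named were all members, list genes past 2-fold and up to 4 further genes per list with the highest mean intensity, and marker genes past 2-fold or among the brightest 2; Lox, Itgav, Itgb3, Cd44 and the dim markers named as such were chosen after their values were seen. The members and lists were chosen with earlier results of these data known. The ratio steps were tested on simulated arrays, with changes placed only in probe sets well above the noise floor on the low-salt array. That test did not cover low-salt readings near or under the floor, such as those of Bgn, Postn, Spp1 and Fn1. Promoter bases came from RefSeq (GRCr8). Alternatives were 3 rescalings, 3 other floors, a filter on both arrays, thresholds of 1.5-fold and 3-fold, plain _at probe sets alone, and 2 other rules for several probe sets. Computation used Python 3.11.15, numpy 2.4.6, pandas 2.3.3 and matplotlib 3.10.9.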

Additional observations from a re-analysis of the deposited data

How the results depend on the processing

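Counts at 2-fold are given here as main value against alternative. No paired analysis was possible because each diet had 1 array, and for the same reason no replicate could be left out. The Bgn probe set U17834_at was past 2-fold under every alternative that changes its ratio, with log2 values from 1.36 to 2.45, and the count of lower member probe sets was 0 except at the lower floor. Of 168 comparisons of a count or SD with its main value, 133 stayed within 1.5 times and 35 did not. Many of these were counts of 0 or 1 in lists with few genes above the floor. Such counts had little room to change, so the tally is no measure of stability. The 3 rescalings moved the median of all ratios by under 0.1 on the log2 scale; the counts over all probe sets ran from 68 to 76 higher (69 as deposited) and from 27 to 33 lower (33 as deposited), and with medians set equal 0 other proteoglycans were lower in place of 1.

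The lower floor, at the 40th percentile of all readings (10.9), lies within the noise. There 6 of 19 member probe sets were higher and 2 lower, as were 414 and 435 of all 5707 probe sets, and the SD between probe sets of a gene was 0.47. At that floor 3 other proteoglycans were lower, 1 other matricellular gene was higher and 1 lower, 2 elastic fibre genes were higher, 1 receptor was lower and 1 glycosaminoglycan gene was higher. With the noise floor at the 90th percentile, 3 of 14 member probe sets were higher (Bgn U17834_at, Fn1 and Spp1), and of all 2577 probe sets 94 were higher and 57 lower. Bgn rc_AA859830_s_at also reached that floor, on the low-salt array alone, and was at least 1.42-fold lower. At the 99th percentile, 40 of all were higher and 10 lower, and no other proteoglycan was lower and no elastic fibre gene higher (0 and 0). Requiring both arrays above the floor left 0 elastic fibre genes higher, as did the median of a gene's probe sets (0).

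At 1.5-fold, 2 member probe sets were higher (Bgn and Fn1), as were 171 of all, with 176 lower; 1 other proteoglycan, 1 matricellular gene and 1 receptor were higher and 1 receptor lower. At 3-fold, 21 of all were higher and 4 lower, with 0 other proteoglycans lower and 0 elastic fibre genes higher. With plain _at probe sets alone, 37 of all were higher, 0 other proteoglycans lower and 0 elastic fibre genes higher. By intensity difference, a rule added after the data were seen, 3 of the 12 member probe sets with a low-salt reading under the noise floor were higher. Among all such probe sets 0.775% were. The rule leaves out Bgn U17834_at, whose low-salt reading was above the floor, so its count covers other probe sets than the main count. The cause of these shifts was not tested beyond the fewer or more probe sets each setting admits. Dim signal limits the readings of Fmod, Eln, Thbs4, 4 Fn1 probe sets and Bgn rc_AA859830_s_at, which have no ratio against the main noise floor.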
